A study of Mus musculus with 308 samples.

Results

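The proteasome genes were taken as the probe sets whose only gene symbol matched the subunit naming pattern Psma, Psmb, Psmc, Psmd or Psme followed by a digit. The pattern found 64 probe sets for 42 genes among the 17097 genes with a usable probe set. Of these, 5 encode immunoproteasome parts (Psmb8, Psmb9, Psmb10, Psme1 and Psme2), 35 encode other subunits and activators, and 2 (Psmc3ip and Psme3ip1) match the pattern without being subunits and were set aside. The symbols were checked by role. They cover 7 alpha and 7 beta subunits of the constitutive 20S core. They also cover 5 ATPases of the 19S cap and 13 genes named as its non-ATPase subunits. Of these 13, Psmd5 and Psmd9 encode chaperones of cap assembly and were counted with the 35 others. The rest are PA28 alpha and beta (Psme1, Psme2), PA28 gamma (Psme3), the 3 inducible catalytic beta subunits, and the tissue-restricted Psma8 and Psmb11.

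The arrays, 308 in all, measured RNA from kidney, spleen, jejunum, brain, whole blood and both the mesenteric and inguinal lymph nodes of C57BL/6 mice. Mice were given the vehicle 0.8% hydroxypropyl methylcellulose, dimethyl fumarate (DMF) at 100 mg/kg (DMF100) or 179.2 mg/kg (DMF179.2), a mix of monoethyl fumarate (MEF) salts with Ca2+, Mg2+ and Zn2+ at 79.2 mg/kg (MEF79.2), or DMF at 100 mg/kg together with MEF salts at 79.2 mg/kg (the combination). Doses were daily over 10 days, and the tissues date from 12 h past the final one. A group labelled Nav is not explained by the labels. Age and sex are not given in the sources used here. Each tissue and group held between 5 and 8 arrays, each array taken as 1 sample, and the p-values measure the spread between arrays. The marker genes of every tissue lay above the tissue's median probe set on every array, among them 4 of 4 brain genes in brain, 3 of 3 kidney genes in kidney, 4 of 4 intestinal genes in jejunum and 8 of 8 B cell genes in spleen, both nodes and blood.

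The proteasome is the protease that degrades proteins tagged with ubiquitin. Its 20S core is a barrel of alpha and beta rings, in which Psmb6 (beta 1), Psmb7 (beta 2) and Psmb5 (beta 5) are the catalytic subunits. The 19S cap, built from ATPases and non-ATPase subunits, recognises, unfolds and feeds in substrates. Interferon replaces the catalytic subunits with Psmb9, Psmb10 and Psmb8 and induces the PA28 cap, which favours peptides for presentation on MHC class I. In cells short of proteasome activity the transcription factor NRF1 (Nfe2l1) raises subunit genes through antioxidant response elements, and NRF2 (Nfe2l2), which fumarates activate by modifying its repressor KEAP1, binds similar elements.

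Promoters were read because these elements bear on both factors. The RefSeq promoter table of assembly GRCm38.p6 held 39 windows for 35 of the 42 genes that match the pattern, counting those set aside. Each window ran from 250 bases before to 50 bases after the start. The immunoproteasome genes had 6 windows and 28 other members had 30. Psmb5 and Psmb6, which rose in kidney and mesenteric node, are shown with their match to the element core TGACNNNGC in capitals, and Psme1, which fell in spleen, with its match to the interferon element core TTCNNTTTC.
Psmb5, chr14:54617946-54618245, minus strand: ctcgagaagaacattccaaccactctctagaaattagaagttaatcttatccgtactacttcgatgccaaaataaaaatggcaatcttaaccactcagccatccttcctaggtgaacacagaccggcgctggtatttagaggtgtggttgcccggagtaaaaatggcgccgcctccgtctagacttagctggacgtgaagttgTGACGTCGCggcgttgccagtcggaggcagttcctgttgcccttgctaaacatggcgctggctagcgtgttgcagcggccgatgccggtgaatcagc
Psmb6, chr11:70525107-70525406, plus strand: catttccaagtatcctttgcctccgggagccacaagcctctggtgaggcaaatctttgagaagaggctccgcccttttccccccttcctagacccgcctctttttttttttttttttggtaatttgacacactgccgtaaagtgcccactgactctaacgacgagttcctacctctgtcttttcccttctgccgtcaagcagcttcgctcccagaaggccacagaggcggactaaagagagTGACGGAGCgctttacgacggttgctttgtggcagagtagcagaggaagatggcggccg
Psme1, chr14:55578244-55578543, plus strand: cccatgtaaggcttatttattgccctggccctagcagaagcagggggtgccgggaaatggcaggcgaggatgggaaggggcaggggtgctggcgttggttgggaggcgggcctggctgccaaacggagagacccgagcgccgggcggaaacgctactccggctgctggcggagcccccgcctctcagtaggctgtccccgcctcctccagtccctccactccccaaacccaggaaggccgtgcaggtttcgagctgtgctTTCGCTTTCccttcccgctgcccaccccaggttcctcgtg
On both strands, TGACNNNGC stood in windows of 4 of 28 other members (Psmb5, Psmb6, Psmd9 and Psmd12) and 0 of 5 immunoproteasome genes. It stood in 13.3% of the other members' windows and in 12.4% of all 32851 windows. The looser core TGANNNNGC stood in 17 of 30 windows of other members (56.7%) and 4 of 6 immunoproteasome windows (66.7%). It stood in 41.3% of all windows. The full element TGACTCAGC stood in 0 member windows and in 0.454% of all windows. TTCNNTTTC stood in Psme1 and in 5 other members (Psmb3, Psmb4, Psmc2, Psmd4 and Psmd9), against 8.56% of all windows. The STAT core TTCNNNGAA stood in Psmb8 and Psmd2, against 8.3% of all windows, and the CCAAT letters in 1 immunoproteasome gene and 12 of 28 others, against 37.4%. These are descriptions of letters in these windows. Psmb1, Psmb2, Psmb7, Psmc3, Psmd3 and Psma8 were among the members not matched.

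**Figure D1:**
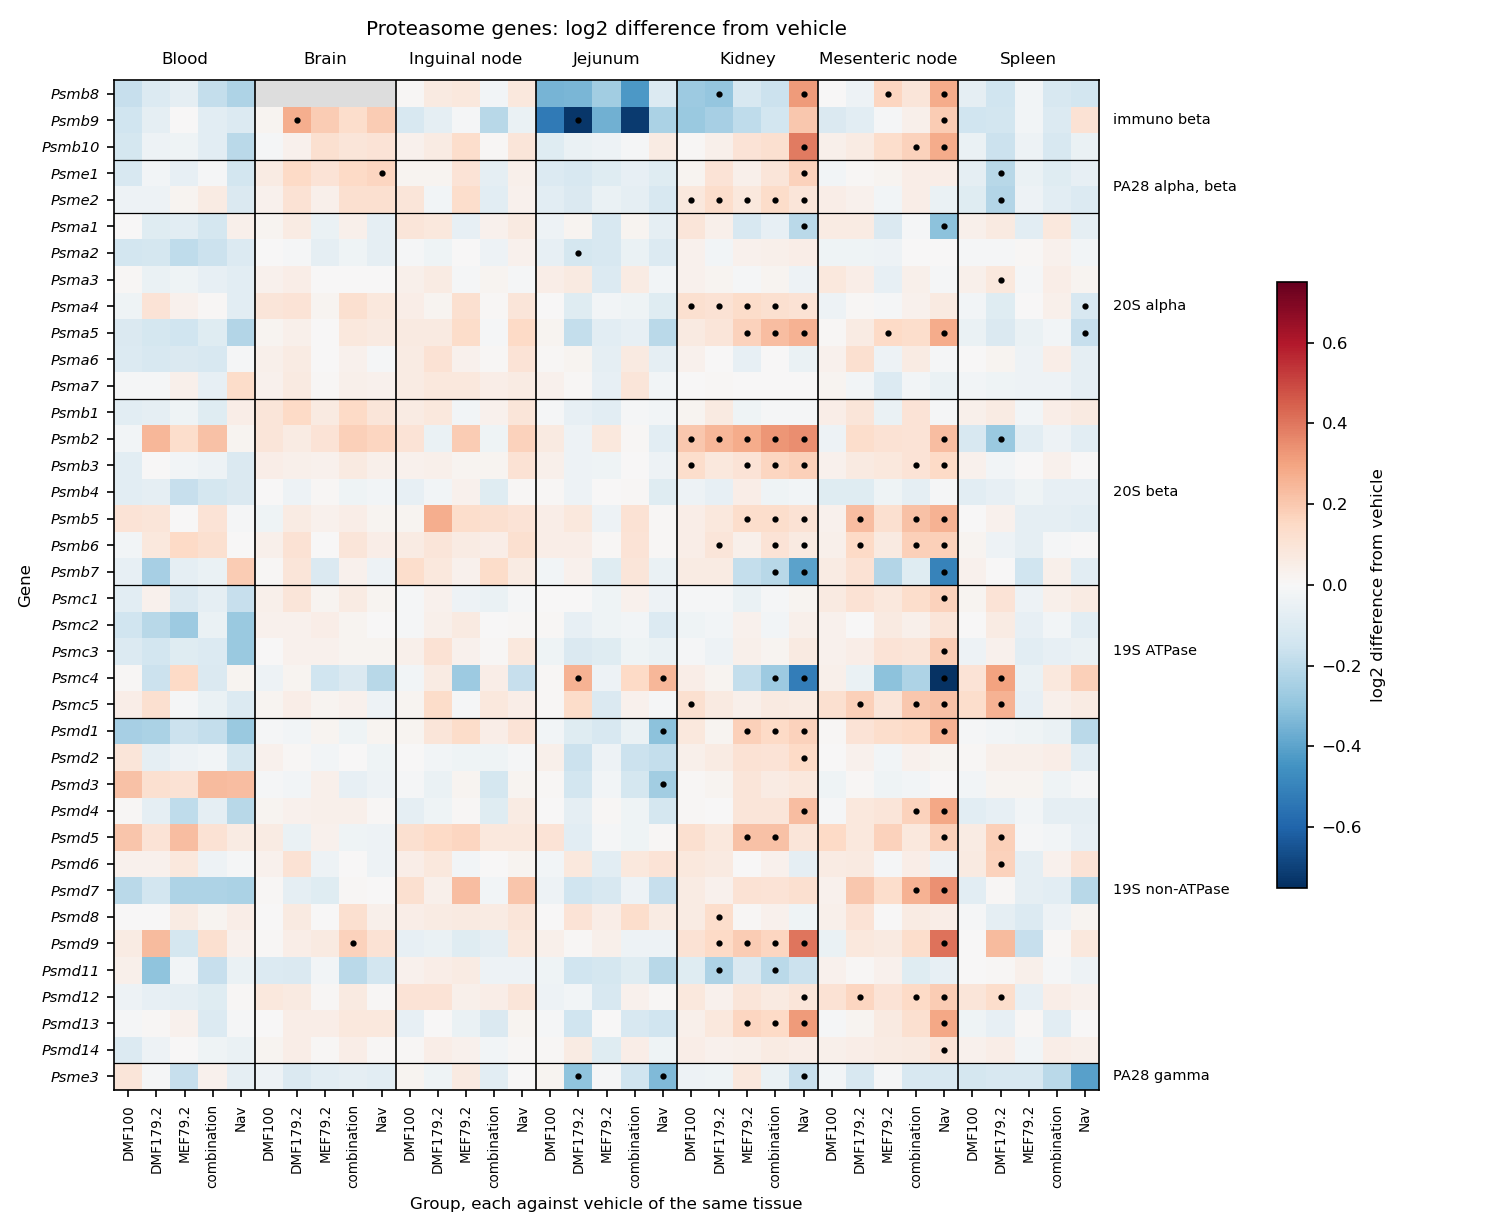
Log2 difference from vehicle for every proteasome gene tested (rows, grouped by role) in each group (columns, by tissue). Dots mark adjusted p under 0.05 and grey marks genes not tested. Dots gather in kidney and mesenteric node, with the most under Nav, and no cell is dotted in blood or inguinal node.

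Across the tissues and the 4 treatments, differences were small. Genes were tested if at least 5 arrays of the tissue had a value above its 50th percentile, which kept 38 of the subunit genes in each tissue and 37 in brain. Psma8 and Psmb11 were tested in no tissue, and Psmb8 was not tested in brain, where its mean log2 value was 5.34 against a threshold of 5.79. Over 28 contrasts with vehicle there were 1060 gene values, of which 66 were called by limma at a Benjamini-Hochberg adjusted p under 0.05 over all genes of the tissue. Of these, 55 rose, 11 fell, and 37 lay in kidney. Over all genes, too, kidney held the most calls, with 17.7% that rose and 12.6% that fell under the combination. The share of all genes in each contrast is given with its member counts below. The totals are not read as a result about members. Calls were made in 11 contrasts and none in 17. In 1052 of the values (99.2%) the 95% confidence interval lay within a 1.5-fold difference either way. Just 2 values passed 1.5-fold, both of Psmb9 in jejunum. The median distance from a value to its interval's end ranged from 0.08 on the log2 scale in brain and kidney to 0.19 in blood. The tissues look normalized apart, since their values sit on separate scales, so levels are set side by side only within a tissue.

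In kidney, Psmb2, the beta 4 subunit of the 20S core, rose under every treatment, and more members rose than fell under each. The log2 values of Psmb2 in vehicle arrays ran from 10.03 over a median of 10.19 to 10.25. They ran from 10.19 over 10.38 to 10.54 under DMF100, and from 10.32 over 10.40 to 10.53 under DMF179.2. They ran from 10.35 over 10.42 to 10.52 under MEF79.2, and from 10.40 over 10.47 to 10.64 under the combination. All arrays of DMF179.2, MEF79.2 and the combination lay above the highest vehicle array, as did 7 of 8 under DMF100. The log2 differences were 0.20 ± 0.04 (SE; adjusted p = 0.002), 0.25 ± 0.04 (adjusted p = 5.81e-05), 0.28 ± 0.05 (adjusted p = 5.6e-05) and 0.33 ± 0.04 (adjusted p = 3.11e-07) by limma, or 1.15-, 1.19-, 1.21- and 1.26-fold. The group Nav, which is not a treatment in the labels, was as high, with values from 10.39 over 10.55 to 10.63.

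**Figure D2:**
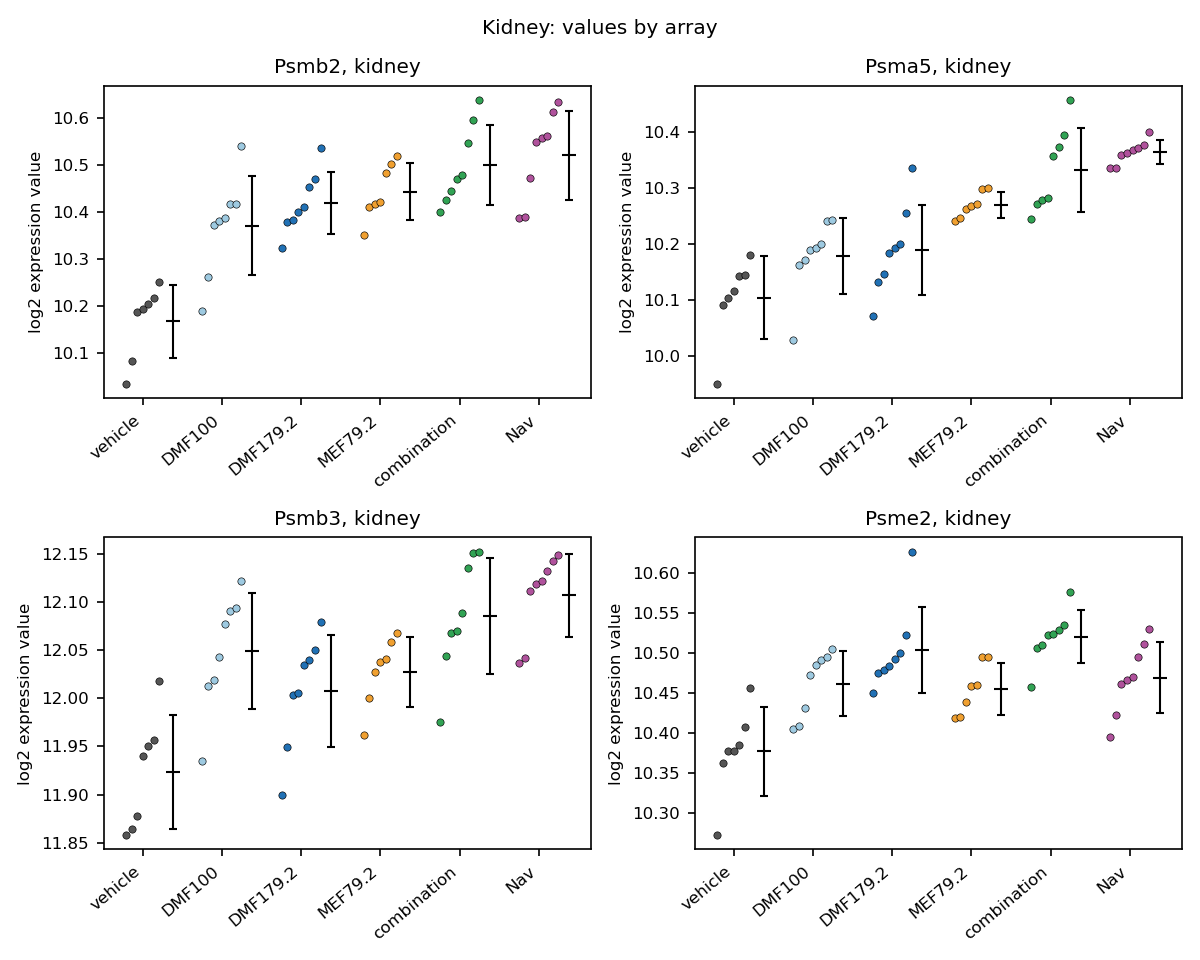
Log2 expression values of Psmb2, Psma5, Psmb3 and Psme2 in kidney, 1 point per array sorted by value within each group, with mean and SD as bars. Psmb2 arrays of DMF179.2, MEF79.2, the combination and Nav all lie above the highest vehicle array at 10.25.

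Under DMF100, 5 members rose and 0 fell in kidney, beside 4.51% of all 10706 genes tested that rose and 3.58% that fell. Under DMF179.2, 6 rose and 2 fell, beside 10.6% and 6.09%. Under MEF79.2, 10 rose and 0 fell, beside 8.75% and 5.45%. Under the combination, 11 rose and 3 fell, beside 17.7% and 12.6%. The median log2 difference over the 38 members was 0.04 under each single agent and 0.06 under the combination, and that over all genes lay between 0.002 and 0.016. DMF100 and MEF79.2 differ in dose and are given side by side only.

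Among the constitutive core subunits in kidney, Psma5, an alpha ring subunit, rose by 0.17 ± 0.04 under MEF79.2 (adjusted p = 0.00147, limma) and by 0.23 ± 0.03 under the combination (adjusted p = 3.58e-06). Its vehicle values ran from 9.95 over 10.12 to 10.18 and its combination values from 10.24 over 10.32 to 10.46, without overlap. Under DMF100 and DMF179.2 its differences were 0.07 and 0.09 and were not called. Psma4, another alpha subunit, rose in all 4 treatments, by between 0.11 and 0.14. Psmb3, a structural beta subunit, rose by 0.16 under the combination, 0.13 under DMF100 and 0.10 under MEF79.2. The catalytic Psmb5 rose by 0.13 both with MEF79.2 and with the combination. The catalytic Psmb6 rose by 0.10 with the combination and 0.09 with DMF179.2. The catalytic Psmb7 fell by 0.21 under the combination, and this call ended when the groups were compared as a pair alone, with array weights, without the filter on low values, or with the hybridisation controls as covariate.

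Among the genes named as 19S subunits in kidney, 4 of 13 non-ATPase members rose with MEF79.2 and 4 with the combination. The assembly chaperones Psmd5 and Psmd9 were among them in each. Psmd1, the large scaffold subunit of the cap, rose by 0.18 ± 0.05 under MEF79.2 and 0.15 ± 0.05 under the combination. Psmd5, a chaperone of cap assembly, rose by 0.22 ± 0.06 under each. Psmd13, a lid subunit, rose by 0.16 and 0.15, and Psmd8, another lid subunit, by 0.13 under DMF179.2. Psmc5, an ATPase, rose by 0.12 under DMF100 with an adjusted p of 0.048 by limma. Of the 5 ATPases, Psmc4 fell by 0.27 under the combination, but its second probe set rose by 0.15.

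For other genes with several probe sets the measurements also went in both directions. Psmd9, also an assembly chaperone, rose by 0.15, 0.19 and 0.16 under DMF179.2, MEF79.2 and the combination, while under the combination another of its probe sets fell by 0.77 and the third differed by 0.19 (adjusted p = 0.066, limma). Psmd11, a lid subunit, fell by 0.20 with the combination and 0.23 with DMF179.2, while its other probe sets differed by 0.04 and 0.04 under DMF179.2. For Psmc4, Psmd9 and Psmd11 the direction thus depends on the probe set.

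The immunoproteasome parts did not move as 1 group in kidney. Psme2, PA28 beta, rose by 0.08 ± 0.03 (adjusted p = 0.0388), 0.13 ± 0.03 (adjusted p = 0.000642), 0.08 ± 0.03 (adjusted p = 0.0489) and 0.14 ± 0.03 (adjusted p = 9.07e-05) by limma, for both DMF doses in rising order, MEF79.2 and the combination. Its vehicle values ran from 10.27 over 10.38 to 10.46, and all 8 combination arrays lay above them. Psme1, PA28 alpha, differed by between 0.02 and 0.10 and was not called. Psmb8, the inducible beta 5, fell by 0.29 ± 0.10 under DMF179.2 (adjusted p = 0.0347), with 7.13 over 7.33 to 7.43 against 7.45 over 7.57 to 7.76 in vehicle, and all 8 arrays lay below the lowest vehicle array. Without the filter on low values the Psmb8 call ended. Psmb9, the inducible beta 1, differed by -0.28, -0.25, -0.19 and -0.14, and Psmb10, the inducible beta 2, by 0.01, 0.04, 0.10 and 0.12, none of them called. Beside this, Irf1, an interferon-induced transcription factor, fell by 0.23 with the combination and by 0.30 and 0.29 with DMF100 and DMF179.2, and Nlrc5, the activator of MHC class I genes, fell by 0.53 and 0.51 under DMF100 and the combination. Macrophage and monocyte markers in kidney were called in 0, 1, 1 and 1 of 8 genes tested, with medians of -0.19, -0.04, -0.23 and -0.09. The mean of the 10 markers ran from 6.01 to 6.80 in vehicle arrays and from 6.17 to 6.42 under DMF179.2, and their part in the Psmb8 difference was not tested. In such bulk samples, fewer cells of a type and less RNA per cell cannot be told apart.

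Nav differed from vehicle in more members than any treatment did in kidney and in mesenteric node. In kidney 16 members rose and 4 fell (30% and 19.8% of all genes), and in mesenteric node 19 rose and 3 fell (29.8% and 20.8%). With each array centred on its median these splits became 9 and 9, beside 18.2% and 28.2% of all genes, and 8 and 5, beside 18.7% and 26.8%. Psmb10 rose by 0.39 and 0.28 and Psmb8 by 0.32 and 0.28 in kidney and mesenteric node, Psmb5 by 0.11 and 0.26, and Psmd4, a ubiquitin receptor of the cap, by 0.23 and 0.29. Psmb7 fell by 0.40 and 0.50. Psmc4 fell by 0.52 and 0.74 on the probe set used, while its other probe set rose by 0.25 and 0.36, so that the 2 probe sets were called in opposite directions in both tissues. The mean log2 signal of the hybridisation controls was 12.01 in Nav against 11.82 in vehicle kidney arrays, and 11.89 against 11.71 in mesenteric node. With that signal as covariate 17 of the 20 kidney calls and 14 of the 22 mesenteric node calls were kept, and 1 new kidney call (Psmd11) was made.

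Set against Nav in place of vehicle, an alternative chosen after seeing the data, more members of the treated kidneys were lower than higher. The same held for all genes in each of these kidney groups. Under DMF100 7 members were higher and 11 lower than Nav (21.2% and 30.6% of all genes), under DMF179.2 6 and 13 (23.7% and 28.9%), under MEF79.2 3 and 9 (13.7% and 19.4%), and under the combination 3 and 6 (11.3% and 14.9%). Psmb2 differed from Nav by -0.15 (adjusted p = 0.00326, limma), -0.10 (adjusted p = 0.0429), -0.08 (adjusted p = 0.176) and -0.02 (adjusted p = 0.76) in the same order. Psmb2 was thus lower than Nav in both DMF groups and not called in the others. Psmb8, Psmb9 and Psmb10 were lower than Nav in all 4 treated groups, Psmb8 by 0.59, 0.61, 0.44 and 0.48. In mesenteric node the counts of higher and lower members were 3 and 15, 4 and 10, 3 and 6, and 3 and 4, beside 23.8% and 24.6%, 23% and 23.9%, 10.9% and 14.6%, and 13.3% and 6.91% of all genes.

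In mesenteric node every treatment call against vehicle was a rise, mostly of core and cap subunits. DMF100 gave 0 calls by limma, with 5 of 38 members at an unadjusted p under 0.05, beside 14.3% of all 10671 genes at that p and 1.85% called at the adjusted p. DMF179.2 raised 4 members and lowered 0 (6.15% and 1.73% of all genes), MEF79.2 2 and 0 (1.49% and 3.26%), and the combination 8 and 0 (9.16% and 3.57%). Psmb5 ran from 11.15 over 11.54 to 11.68 in vehicle, from 11.60 over 11.72 to 11.88 under DMF179.2 and from 11.64 over 11.72 to 11.75 under the combination. It rose by 0.23 ± 0.06 (adjusted p = 0.019, limma) and 0.22 ± 0.07 (adjusted p = 0.0299), with 6 of 8 and 5 of 6 arrays above the highest vehicle array.

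Psmb6 rose by 0.15 ± 0.04 under DMF179.2 (adjusted p = 0.0101) and 0.18 ± 0.04 under the combination (adjusted p = 0.00362), where all 6 arrays lay above the vehicle range of 11.33 to 11.54. Psmc5 rose by 0.18 and 0.20 and Psmd12, a lid subunit, by 0.16 and 0.15 under these groups. Psmd4 rose by 0.17 under the combination. Psmd7, a lid subunit, ran from 7.45 over 7.82 to 8.02 in vehicle and from 7.86 over 8.01 to 8.25 under the combination, a rise of 0.26 ± 0.09 whose call (adjusted p = 0.0489, limma) ended under all 7 alternatives. Of the immunoproteasome parts, Psmb8 rose by 0.16 under MEF79.2 (adjusted p = 0.0498) and Psmb10 by 0.17 under the combination (adjusted p = 0.0377). Centring moved the median of all genes by -0.11 for the combination and ended all 4, 2 and 8 calls with DMF179.2, MEF79.2 and the combination. Psmc4, on the probe set used, was then called as a fall with the combination. Over all 10671 genes, centring took rises under the combination from 977 to 240 and falls from 381 to 1180. Under DMF179.2 it took rises from 656 to 292 and falls from 185 to 619. Under MEF79.2 it took rises from 159 to 87 and falls from 348 to 106. Without DMF179.2 replicate 23, 1 call was left under DMF179.2.

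In spleen, DMF179.2 lowered Psmb2 and both PA28 genes. Psmb2 ran from 10.22 over 10.32 to 10.53 in vehicle and from 9.94 over 10.07 to 10.20 under DMF179.2, a fall of 0.28 ± 0.07 (adjusted p = 0.0043, limma). Psme1 ran from 12.20 over 12.27 to 12.33 and from 11.96 over 12.06 to 12.17, a fall of 0.21 ± 0.04 (adjusted p = 0.00136). Psme2 ran from 11.60 over 11.67 to 11.74 and from 11.35 over 11.44 to 11.53, a fall of 0.22 ± 0.04 (adjusted p = 0.000506). For each of them all 8 treated arrays lay below the lowest vehicle array. The constitutive Psmb5, Psmb6 and Psmb7 differed by 0.03, -0.04 and 0.00. The inducible subunits Psmb8, Psmb10 and Psmb9 differed by -0.15 (adjusted p = 0.0516, limma), -0.16 (adjusted p = 0.0541) and -0.14 (adjusted p = 0.138).

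**Figure D3:**
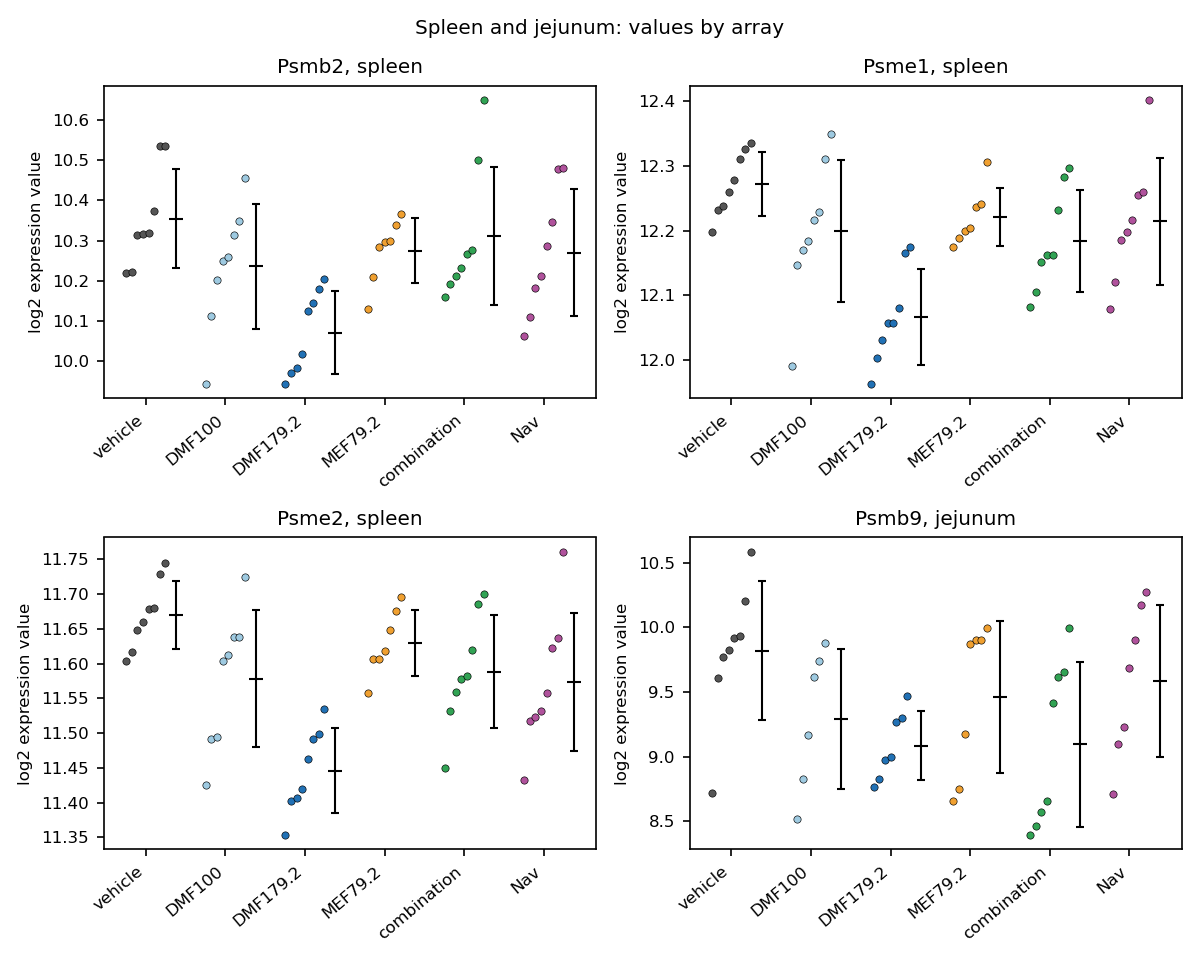
Log2 expression values of Psmb2, Psme1 and Psme2 in spleen and of Psmb9 in jejunum, 1 point per array sorted by value within each group, with mean and SD as bars. In spleen the DMF179.2 arrays lie below all vehicle arrays for the 3 genes, while Psmb9 in jejunum overlaps between groups.

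Other members rose in the same spleens. The ATPases Psmc4 and Psmc5 rose by 0.30 ± 0.09 and 0.26 ± 0.07. Psmc4 was read from its probe set of highest mean. Its other probe set, which went the opposite way in kidney under the combination, is not reported here for spleen. The assembly chaperone Psmd5 and the non-ATPase subunit Psmd6 rose by 0.18 and 0.17, and Psmd12 and Psma3 by 0.13 and 0.08. In all 6 members rose and 3 fell, beside 16.9% and 7.54% of all 10549 genes. Centring each array moved the median of all genes by -0.14 and changed the split to 2 rises and 17 falls, with Psma3 at -0.057 and Psmd12 at -0.0035, beside 6.73% and 28% of all genes that rose and fell after centring. Erythroid precursor markers rose in the same arrays, 10 of 12 genes with a median of 1.80, and their array means ran from 9.14 to 10.50 against 6.14 to 9.90 in vehicle. Proliferation genes rose in 7 of 9 with a median of 0.82, array means from 9.05 to 9.91 against 8.0 to 9.64, and 3 of 8 B cell genes fell, array means from 11.54 to 11.71 against 11.61 to 11.80. The 3' over 5' signal of actin and Gapdh probes was 1.39 ± 0.11 (SD, n = 8) against 1.2 ± 0.07 (SD, n = 8), and its part was not tested. With the erythroid mean as covariate the 3 falls stayed called, at -0.29, -0.16 and -0.17 for Psmb2, Psme1 and Psme2, and 0 of the 6 rises did.

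The other treatments gave 0 calls on members in spleen by limma. DMF100, MEF79.2 and the combination had 2, 1 and 3 of 38 members at an unadjusted p under 0.05, beside 12.7%, 5.33% and 7.65% of all genes at that p. The shares of genes called at the adjusted p were 0.834%, 0.0% and 0.0284%. Nav lowered Psma4 and Psma5 by 0.12 and 0.17 and raised 0 (8.07% of all genes rose and 5.31% fell).

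In jejunum Psmb9 had the 2 differences past 1.5-fold. Its values ran from 8.72 over 9.87 to 10.58 in vehicle and from 8.77 over 9.0 to 9.47 under DMF179.2, a fall of 0.73 ± 0.27 (1.66-fold, adjusted p = 0.0409, limma). The groups overlapped, since 1 vehicle array (replicate 4) lay below all DMF179.2 arrays, while the other vehicle arrays lay above them. Replicate 4 is flagged below as far from its group for Psmb8 and for the immunoproteasome mean. A fit without it was not run. Under the combination the difference was -0.72 ± 0.26 with an adjusted p of 0.102 by limma, and values ran from 8.39 over 9.04 to 10.00. Psmb9 also lay below vehicle under DMF100, MEF79.2 and Nav, by -0.53, -0.36 and -0.24, and was not called there. The Psmb9 call ended without the filter on low values, with the mean of its probe sets, and with the hybridisation controls as covariate. The second Psmb9 probe set differed by -0.45 under DMF179.2 with an adjusted p of 0.188. The constitutive Psmb5, Psmb6 and Psmb7 differed by 0.08, 0.05 and 0.03, Psmb8 by -0.34 (adjusted p = 0.303, limma), Psmb10 by -0.05, Psme1 by -0.12 and Psme2 by -0.11. Of the lymphocyte markers tested in jejunum, 0 of 7 B cell and 0 of 4 T cell genes were called under DMF179.2, 0 of them also at an unadjusted p under 0.05, and the B cell array means ran from 3.68 to 6.74 against 3.66 to 6.11 in vehicle. The part of such cells in the Psmb9 difference was not tested.

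Outside the immunoproteasome, Psmc4 in jejunum ran from 11.40 over 11.59 to 11.74 in vehicle and from 11.70 over 11.83 to 11.91 under DMF179.2, a rise of 0.26 ± 0.07 (adjusted p = 0.00477, limma). The Psmc4 value is that of its probe set of highest mean. Its other probe set, which went the opposite way in kidney under the combination, is not reported here for jejunum. Psme3, the nuclear PA28 gamma, fell by 0.30 ± 0.11 (adjusted p = 0.0324, limma). Psma2, an alpha subunit, fell by 0.13 ± 0.04 (adjusted p = 0.0206, limma). So 1 member rose and 3 fell, beside 15.6% and 11.8% of all 10847 genes. The hybridisation controls read 11.86 under DMF179.2 against 12.00 in vehicle, and with them as covariate all 4 of these calls ended and Psmb1 was called instead. DMF100, MEF79.2 and the combination gave 0 calls by limma, with 0, 3 and 5 of 38 members at an unadjusted p under 0.05, beside 10.2%, 12.5% and 22% of all genes at that p. The shares of genes called at the adjusted p were 0.996%, 0.111% and 3.84%. Nav raised 1 member and lowered 3 (5.07% and 2.80%), and after centring, which moved the median of all genes by -0.11, 0 rose and 17 fell, beside 1.94% and 10.8% of all genes.

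In brain, single members rose. Psmb9 rose under DMF179.2 by 0.27 ± 0.07 (adjusted p = 0.0312, limma), with 6.26 over 6.49 to 6.70 against 6.07 over 6.16 to 6.54 in vehicle, so the groups overlapped. Of 7 macrophage and monocyte markers tested in the same contrast, Mpeg1 rose by 0.34 (adjusted p = 0.0063, limma) and Lyz2 by 0.45 (adjusted p = 0.0196) and the others were not called, with array means of the list from 6.70 to 6.99 against 6.58 to 6.78 in vehicle, and their part was not tested. Psmd9 rose under the combination by 0.17 ± 0.04 (adjusted p = 0.0369), with 8.30 over 8.39 to 8.48 against 8.17 over 8.23 to 8.27 and all 8 arrays above vehicle. Psme1 rose under Nav by 0.16 (adjusted p = 0.0392). Of all 10763 genes, 1.01% rose and 0.0743% fell with DMF179.2, 0.204% and 0.0929% with the combination, and 2.04% and 1.78% with Nav. DMF100 and MEF79.2 gave 0 calls on members, with 3 and 4 of 37 at an unadjusted p under 0.05, beside 7.33% and 17.9% of all genes at that p. The shares of genes called at the adjusted p were 0.40% and 0.362%. The constitutive Psmb5, Psmb6 and Psmb7 differed by 0.06, 0.11 and 0.09 under DMF179.2, and Psmb10, Psme1 and Psme2 by 0.03, 0.15 and 0.11, none of them called. Neither treatment call in brain was kept after quantile normalization or centring of each array. The Psmd9 call also ended with the mean of its probe sets and with the hybridisation controls as covariate. The Psmb9 call also ended with the pair of groups alone.

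In blood and inguinal node no member was called by limma in any group. In blood, the members at an unadjusted p under 0.05 numbered 0, 4, 3, 1 and 2 (for DMF100, DMF179.2, MEF79.2, the combination, then Nav), beside 10.1%, 15.9%, 11.1%, 7.47% and 13.1% of all 10378 genes at that p. The shares of genes called at the adjusted p were 0.26%, 1.34%, 0.0%, 0.0% and 0.0193%. In blood under DMF179.2 Psmb5, Psmb6 and Psmb7 differed by 0.09, 0.08 and -0.25, and Psmb8, Psmb9, Psmb10, Psme1 and Psme2 by -0.10, -0.07, -0.04, -0.02 and -0.04. Psmb2 differed by 0.25 in blood under DMF179.2 with an adjusted p of 0.295. In inguinal node the members at that p numbered 2, 6, 8, 2 and 7 of 38, beside 14.3%, 11.1%, 11.7%, 10.3% and 11% of all 10559 genes at that p. The shares of genes called at the adjusted p were 1.69%, 0.379%, 0.00947%, 0.0474% and 0.0189%. Psmb5 there differed by 0.27 under DMF179.2 with an adjusted p of 0.128, and Psmb6 and Psmb7 by 0.09 and 0.08. Psmb8, Psmb9, Psmb10, Psme1 and Psme2 differed by 0.07, -0.07, 0.06, 0.02 and -0.02.

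Whether a member's response differed between tissues was asked with an F test of tissue by treatment, for the 37 subunits tested in all 7 tissues. Under DMF179.2 the response differed between tissues for 12 subunits, beside 35.1% of all 7849 genes, under the combination for 8 (16.1%), under MEF79.2 for 3 (9.28%) and under DMF100 for 0 (3.52%). The test takes arrays of different tissues as independent. Under DMF179.2 Psmb2 had an F of 6.06 (adjusted p = 0.000128, limma), with differences of 0.25 in blood, 0.06 in brain, -0.05 in inguinal node, -0.04 in jejunum, 0.25 in kidney, 0.13 in mesenteric node and -0.28 in spleen. Psmb2 was thus called as a rise in kidney and as a fall in spleen.

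**Figure D4:**
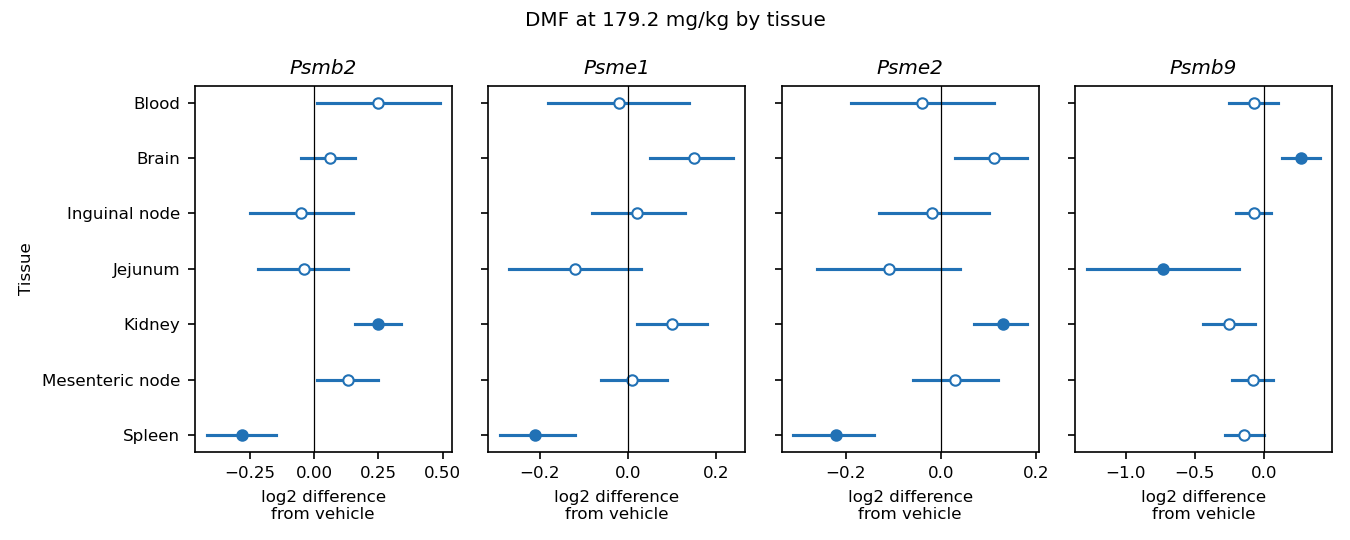
Log2 difference of DMF179.2 from vehicle with 95% confidence interval for Psmb2, Psme1, Psme2 and Psmb9 in each tissue. Filled points have an adjusted p under 0.05 within that tissue. Psmb2 and Psme2 lie above 0 in kidney and below 0 in spleen, and Psmb9 lies lowest in jejunum.

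Psme2 had an adjusted p of 0.000154 in the same test by limma, with 0.13 in kidney and 0.11 in brain against -0.22 in spleen and -0.11 in jejunum. Psme1 followed with 0.00042, at 0.15 in brain and 0.10 in kidney against -0.21 in spleen. Psmb9 had an adjusted p of 0.000207, at 0.27 in brain against -0.73 in jejunum and -0.25 in kidney. The F test does not use the spread of jejunum alone, where the SE of Psmb9 was 0.27. With that spread the adjusted p was 0.0409 by limma, and the call ended under 3 alternatives. Psmc3, an ATPase, and Psma6, an alpha subunit, followed with 0.00587 and 0.0114, though neither was called in any single tissue under DMF179.2, where they differed by between -0.14 and 0.12.

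Groups given different treatments were then compared with each other. In kidney the combination exceeded DMF100 in Psma5 by 0.15 ± 0.03 (adjusted p = 0.00204, limma) and in Psmb2 by 0.13 ± 0.04 (adjusted p = 0.0349), and was lower in Psmb7 by 0.27 and in Psmc4 by 0.32, beside 8.88% of all genes higher and 5.74% lower. DMF179.2 was lower than the combination in Psma5 by 0.14 and higher in Psmb7 and Psmc4 by 0.27 and 0.29, beside 6.44% higher and 4.97% lower. Psmc4 was read here from its probe set of highest mean. Its other probe set went the opposite way from vehicle under the combination. The calls of Psmb7 and Psmc4 against vehicle in that group each ended under 4 alternatives. In mesenteric node the combination exceeded DMF100 in Psmd4 by 0.18 and Psmb6 by 0.14 and was lower in 0 (4.40% and 4.41% of all genes). In spleen DMF179.2 was lower than the combination in Psmb2 by 0.24, Psme2 by 0.14 and Psma4 by 0.13 and higher in 0 (4.10% of all genes higher and 1.54% lower). In jejunum DMF179.2 exceeded DMF100 in Psmc4 by 0.26 and was lower in 0 (6.87% and 4.78%).

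The remaining direct comparisons gave 0 calls on members by limma. Between DMF179.2 and DMF100, 1, 5, 5, 3, 3 and 2 members had an unadjusted p under 0.05 in kidney, mesenteric node, spleen, brain, blood and inguinal node, beside 15.1%, 20.5%, 24.7%, 11.5%, 11.2% and 8.25% of all genes at that p. The shares called at the adjusted p were 1.36%, 0.59%, 2.56%, 0.0186%, 0.0% and 0.00947%. Between the combination and DMF100, 2, 0, 5, 0 and 1 members did in jejunum, spleen, brain, blood and inguinal node, beside 10.7%, 7.01%, 8.24%, 5.68% and 10.4% of all genes at that p and 0.157%, 0.0%, 0.0929%, 0.0% and 0.18% called at the adjusted p. Between DMF179.2 and the combination, 0, 3, 5, 0 and 4 members did in jejunum, mesenteric node, brain, blood and inguinal node, beside 11.5%, 11.1%, 11.5%, 6.6% and 5.26% at that p and 0.0%, 0.00937%, 0.00929%, 0.0% and 0.0% called. For Psmb2 in kidney DMF179.2 and DMF100 differed from vehicle by 0.25 and 0.20, and in spleen by -0.28 and -0.12, where their own difference was -0.16 (95% interval -0.30 to -0.03, adjusted p = 0.128, limma).

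The antioxidant genes that fumarates are known to induce through NRF2 were measured in the same arrays, and in kidney most of them rose. In kidney 13, 15, 11 and 14 of 16 of these genes rose in the DMF100, DMF179.2, MEF79.2 and combination groups, with medians of 0.33, 0.44, 0.39 and 0.47, beside member medians of 0.04, 0.04, 0.04 and 0.06. Nqo1, a quinone reductase, rose by 0.82, 1.06, 0.89 and 0.97 there, and Cbr3, a carbonyl reductase, by 2.23, 2.63, 2.25 and 2.69. In jejunum 7, 11, 3 and 9 of 15 rose and Cbr3 rose by 5.42 under DMF179.2, where the member median was -0.05. In mesenteric node 4, 12, 1 and 9 of 15 rose, with medians of 0.23, 0.45, 0.02 and 0.46.

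Elsewhere fewer of them rose. In spleen 9 of 15 rose under DMF179.2 and 1, 0 and 1 under DMF100, MEF79.2 and the combination. In inguinal node 3, 4, 0 and 2 of 14 rose, and Nqo1 rose there by 1.08 with the combination and by 0.95 and 1.35 with DMF100 and DMF179.2, with no member called. In brain 2, 3, 0 and 2 of 15 rose, and in blood 3 of 12 rose under DMF179.2 and 0 under the other treatments. The treatments share their vehicle arrays, so these counts are not independent of each other.

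**Figure D5:**
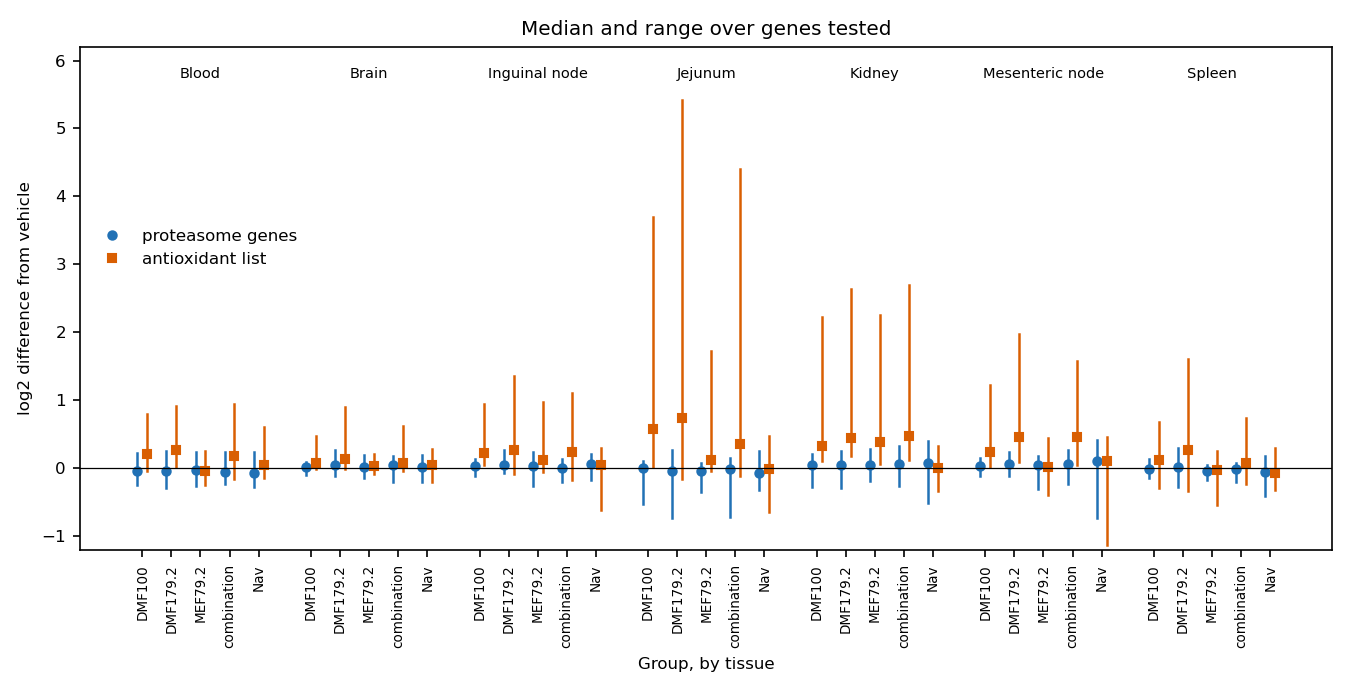
Median (marker) and range (line) of log2 differences from vehicle over the proteasome genes (circles) and the antioxidant list (squares), by group and tissue. The member medians lie between -0.07 and 0.10 in every group, while the list's range reaches 5.42 in jejunum.

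Genes that act with the subunits were read from further lists. Of the factors that control subunit transcription in kidney, Mafg, a partner of NRF1 and NRF2, rose by 0.25 with the combination and 0.22 with DMF179.2, Nfe2l1 rose by 0.16 under MEF79.2, and Nfe2l2 fell by 0.23 with the combination and 0.22 with MEF79.2. In spleen under DMF179.2 Mafg rose by 0.61 and Nfe2l1 fell by 0.20, and in jejunum Nfe2l1 fell by 0.26. Of 5 assembly genes, Psmg4, an assembly chaperone, rose by 0.27 and 0.32 in kidney under DMF179.2 and the combination, and Psmg1 by 0.21 in spleen under DMF179.2. Of 14 further proteasome parts and regulators, 3 rose and 3 fell in kidney under the combination, where 17.7% and 12.6% of all genes did. Among them Ecpas, which binds the proteasome, fell by 0.35, the ubiquilin Ubqln2 fell by 0.27 and the p97 cofactor Nsfl1c rose by 0.17. In spleen under DMF179.2 the proteasome inhibitor Psmf1 rose by 0.58 and the deubiquitinase Uchl5 by 0.21. Heat shock genes rose in 4 of 8 in mesenteric node and 3 of 8 in spleen under DMF100, where 1.85% and 0.834% of all genes were called and 0 members. Of 8 antigen processing genes in spleen, Ciita, the class II activator, fell by 0.65, Irf1 by 0.25 and the class I gene H2-K1 by 0.12 under DMF179.2.

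Of the 66 calls, 19 held under every alternative run for them. In kidney these were Psmb2 in all 4 treatments, Psme2 under DMF179.2 and the combination, Psma4, Psma5, Psmb5 and Psmd1 under MEF79.2 and the combination, and Psmb3 and Psmd5 under the combination. In spleen they were Psmb2, Psme1 and Psme2 under DMF179.2. None of the calls in brain, jejunum or mesenteric node was among them. These alternatives kept vehicle as the reference, and do not include the comparison with Nav or the fit over every probe set.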

How the data were processed

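Each of the 308 arrays is 1 sample of an Affymetrix mouse platform. The authors deposited log2 values for 45141 probe sets. RMA, GCRMA, R 2.11.1 and limma 3.4.5 are named, without roles, per the submitters' processing notes, and the background step is unstated. Groups came from sample titles, since another label gives DMF100 and the combination the same text. The authors' scale differs between tissues, and the share of values at a tissue's minimum ran from 18.48% to 23.34%.

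A total of 28898 probe sets carry 1 gene symbol, 551 several and 15692 none. Each gene was read from its probe set of highest mean over all arrays. Within a tissue, 1 mean per group was fitted with limma 3.58.1 (R 4.3.3, with version 1.17.8 of its data.table package), with Benjamini-Hochberg adjustment over all genes tested (50th percentile in at least 5 arrays) and calls at adjusted p under 0.05. The fit was tested on simulated data. The number of arrays limits the precision.

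Alternatives were no filter, quantile normalization, centring of each array, array weights, every probe set, averaged probe sets, the pair of groups alone, hybridisation controls or erythroid markers as covariate, the replicate number as block, and leaving out arrays. Nav in place of vehicle and leaving out Nav replicate 44 or 40 were added after seeing the data. The members, gene lists and tests were chosen with earlier results of these data known. Members may all be named; others are called genes of fixed lists, up to 3 per list, tissue and treatment by smallest adjusted p, apart from Nqo1 in kidney, named after its values were seen. Of the ubiquitin genes listed, none was analysed here.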

Additional observations from a re-analysis of the deposited data

Results flagged for a closer look

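A sample far from the others of its group was seen in 16 of 270 groups checked, where chance gives about 5%. In jejunum vehicle replicate 4 the mean of the immunoproteasome genes was 10.89 (others 11.45 to 11.86) and Psmb8 was 9.77 (10.65 to 11.19). In spleen Nav replicate 40 the same mean was 11.31 (11.52 to 11.66), with Psmb8 at 11.21 (11.47 to 11.63) and Psmb9 at 10.81 (11.22 to 11.44). Blood Nav replicate 40 had Psmb10 at 9.70 (10.07 to 10.19). Spleen DMF100 replicate 13 had Psmb8 at 11.15 (11.55 to 11.70) and Psmb10 at 10.89 (11.19 to 11.45). The mean of the other members was 10.56 in brain DMF100 replicate 11 (10.60 to 10.62), 10.45 in brain MEF79.2 replicate 25 (10.58 to 10.62) and 10.36 in kidney MEF79.2 replicate 30 (10.27 to 10.30). Psmb8 was 5.0 in brain vehicle replicate 3 (5.31 to 5.48) and 11.49 in mesenteric node DMF100 replicate 12 (11.63 to 11.74). Psmb9 was 10.05 in blood MEF79.2 replicate 27 (10.22 to 10.26) and 6.17 in brain combination replicate 37 (6.33 to 6.47). Psmc4 was 11.43 in spleen DMF179.2 replicate 17 (11.75 to 11.92).

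A difference in response between tissues passed the F test by limma for 23 pairs of gene and treatment. Of all 7849 genes, 35.1% passed it under DMF179.2, 16.1% under the combination and 9.28% under MEF79.2. Under DMF179.2 the adjusted p was 0.000128 for Psmb2, 0.000154 for Psme2, 0.000207 for Psmb9, 0.00042 for Psme1, 0.00587 for Psmc3, 0.0114 for Psma6, 0.0138 for Psmb1, 0.0144 for Psma4, 0.0251 for Psma5, 0.0349 for Psmd11, 0.0387 for Psmc2 and 0.0449 for Psmb5. Under the combination it was 0.00277 for Psmb9, 0.0192 for Psme2, 0.0326 for Psmb2, 0.0379 for Psmd3, 0.0384 for Psmd13, 0.0441 for Psmb1, 0.0445 for Psmd4 and 0.0469 for Psme1. Under MEF79.2 it was 0.0162 for Psmc2, 0.034 for Psma5 and 0.0395 for Psma2.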

How the results depend on the processing

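Of 373 alternative counts of called members, 301 stayed within 1.5 times of the value reported and 72 did not, and the cause was not tested. Counts of called members by tissue follow without the share of all genes in each setting, and are not read as results about members. In brain under DMF179.2 (1 reported) there were 0 after quantile normalization, 0 after centring, 0 with the mean of probe sets, 0 with the pair alone and 6 with array weights. Under the brain combination (1) there were 0 in the first 3 of these settings, 0 with hybridisation controls as covariate and 9 with array weights; MEF79.2 (0) gave 1 after centring. Brain Nav (1) gave 0 without the filter, 2 after quantile normalization, 8 with array weights, 2 over every probe set and 5 with the pair alone. In inguinal node (0 in each group) the hybridisation covariate gave 4 under Nav, 2 under MEF79.2 and 1 in each DMF group, and array weights 3 under DMF179.2. Jejunum DMF179.2 (4) gave 2 without the filter and 1 with the hybridisation covariate, the combination (0) 1 with array weights, and Nav (4) 17 after centring, 7 over every probe set and 0 with the hybridisation covariate.

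Kidney DMF100 (5) gave 3 after quantile normalization, 1 with the pair alone, 2 with the hybridisation covariate and 18 with Nav in place of vehicle. Kidney DMF179.2 (8) gave 5, 4 and 19 in the first, second and last of these settings, MEF79.2 (10) 6 with the hybridisation covariate, and the combination (14) 8 with the pair alone and 9 against Nav. The kidney combination against DMF100 (4) gave 1 with the hybridisation covariate. Mesenteric node DMF100 (0) gave 18 against Nav. DMF179.2 there (4) gave 0 after centring, 1 with the pair alone, 1 without DMF179.2 replicate 23 and 14 against Nav. MEF79.2 (2) gave 1 without the filter, 9 against Nav and 0 after centring, with the mean of probe sets, with the pair alone and with the hybridisation covariate. The combination (8) gave 5 after quantile normalization, 1 after centring and 5 with the pair alone, Nav (22) 13 after centring and 14 with the hybridisation covariate, and the combination against DMF100 (2) 1 after centring.

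Spleen DMF100 (0) gave 1 with array weights. Spleen DMF179.2 (9) gave 19 after centring, 14 over every probe set and 3 with the erythroid mean as covariate. Spleen Nav (2) gave 10 after centring, 16 with array weights, 8 over every probe set, 0 with the pair alone and 7 with the hybridisation covariate. DMF179.2 against DMF100 (0) gave 8 after centring and 2 with the hybridisation covariate, and against the combination (3) 11 and 7. Without Nav replicate 44 or 40, chosen after seeing the data, kidney and mesenteric node Nav had 19 and 22 calls, and leaving out each array of blood MEF79.2 or Nav left 0.

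With the replicate block, members whose response differed between tissues numbered 17 under DMF179.2, 15 under the combination, 5 under MEF79.2 and 0 under DMF100. Without it they numbered 12, 8, 3 and 0. The shares of all genes with it were 45.7%, 27.9%, 19.3% and 6.36%. After centring, without the block, MEF79.2 had 1 and the combination 5, beside 7.2% and 15.5% of all genes. Each number belongs to 1 treatment and recurs across tissues, but the labels do not say that it marks a mouse. Same-numbered arrays had a correlation over 0.1 in 532 of 866 pairs (median 0.142, against -0.021 for other numbers of the treatment), a hint from the data that numbers pair arrays.

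Directions turned for Psmd9 in kidney with the mean of probe sets (-0.1418 under the combination, -0.0161 under MEF79.2 and -0.0068 under DMF179.2). After centring they turned for Psmb3 in mesenteric node under the combination (-0.0098) and, in spleen under DMF179.2, for Psma3 (-0.0569) and Psmd12 (-0.0035). Centring moved the median of all genes by over 0.1 also in spleen for DMF179.2 against DMF100 (-0.11) and against the combination (-0.12).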
